A study of Homo sapiens with 16 samples.

Results

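The 37 mitochondrially encoded genes were followed in 4 human clear cell renal cell carcinoma (ccRCC) lines. They were chosen by name, as every gene of the count table whose symbol starts with MT-, and make up 37 of the 57773 genes of the table: 13 mRNAs, 2 rRNAs and 22 tRNAs. The rule uses the symbol and no measured value.

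The study asked what loss of the histone demethylases KDM5C and KDM5D does to ccRCC cells, and bulk RNA-seq was made of 16 cell populations. The established lines A498, 769-P, 786-O and CAKI-2 were infected with a lentivirus that carried spCas9, a guide RNA and a drug resistance gene, and RNA was taken from the infected populations, not from clones. Each line had 1 sgCtrl library with a non-targeting guide and 2 sgKDM5C libraries, made with guides 4 and 5. A further 2 libraries for each of 786-O and CAKI-2, sgKDM5D with guides 2 and 4, completed the set. All groups, sgCtrl included, therefore carried Cas9 and a guide, no uninfected population was analysed here, and 1 library stood for each guide in each line. No source ties the libraries to separate cultures, so the p-values below measure the spread between these libraries: between guides of the same line and genotype in the edgeR fits, between all sgCtrl and sgKDM5C libraries of a line in the permutation tests between lines, and between lines in the comparison of guides.

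The mitochondrial genome is a circle of 16569 bases that is present in many copies per cell. Its strands are each transcribed as long precursors by a single RNA polymerase, POLRMT, with the help of TFAM and TFB2M, and the tRNAs that lie between most of the other genes are cut out, which frees the mRNAs and rRNAs. The mRNAs encode subunits of 4 complexes of oxidative phosphorylation, whose other subunits come from nuclear genes, and the rRNAs build the ribosome that translates them inside the organelle. Levels of the single RNAs are set to a large part by decay and by binding proteins such as LRPPRC.

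Total counts per library ran from 23398449 to 41617439. The targeted gene KDM5C was lower in both sgKDM5C populations of every line, by 1.12 on the log2 scale in the mean over lines (edgeR quasi-likelihood test, adjusted p = 0.0154), and its level in the sgKDM5D libraries lay within 152 to 181 CPM (counts per 10 to the power 6 of the scaled library total) beside 166 and 171 CPM in the sgCtrl libraries of 786-O and CAKI-2. The renal marker PAX8 was at 162 to 890 CPM in the sgCtrl libraries, the ccRCC marker CA9 was at 0 in 3 of the 4 and at 9.53 CPM in A498, and 11 markers of immune, endothelial, fibroblast and liver cells summed to 1.69 to 44.4 CPM over all libraries, with the highest sums in A498 (26.3 to 44.4 CPM), most of it COL1A1, and with CD3E at 0 in all. No libraries were copies of each other. The 786-O sgKDM5C guide 4 library lay apart from its line: the chi-square per gene against the other 786-O libraries was 33.8 to 62.1, against 7.55 to 30.7 between the others. In 769-P the guide 4 library lay apart in the same way, at 40.7 and 41.6 against 10.1.

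The genes are packed with hardly a base between them, and in 5 places they overlap. The overlap that matters most for counts is that of MT-ATP8 and MT-ATP6, a pair of ATP synthase subunits read in different frames from a single mRNA: 46 of the 207 bases of MT-ATP8 belong to MT-ATP6 as well, so that reads from this stretch cannot be given to one of them. MT-ND4L and MT-ND4 share 7 bases in the same way. How the counting treated reads that touch 2 genes is not given in the sources used here. The shared bases are in capitals below (GRCh37, + strand).

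MT-ATP8 and MT-ATP6, chrM:8515-8584: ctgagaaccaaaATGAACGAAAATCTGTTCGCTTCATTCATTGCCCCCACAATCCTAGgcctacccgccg
MT-ND4L and MT-ND4, chrM:10748-10778: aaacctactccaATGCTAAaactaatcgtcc

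Of the 13 mRNAs, 6 (MT-ND1, MT-ND2, MT-CO3, MT-ND3, MT-ND4 and MT-CYB) end in the genome with a bare T or TA where a stop codon is due. The missing bases are known to be supplied by polyadenylation. MT-CO1 and MT-ND6 end with AGA and AGG instead. The capitals mark these last bases of the reading frame in genes of both kinds.

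MT-CYB, chrM:15863-15887, + strand: gaaaacaaaatactcaaatgggccT
MT-ND4, chrM:12113-12137, + strand: gacatcattaccgggttttcctctT
MT-CO1, chrM:7419-7445, + strand: gaagaacccgtatacataaaatctAGA
MT-ND6, chrM:14149-14175, − strand: gtaattgagattgctcgggggaatAGG

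MT-ND6 is the one mRNA whose gene is read from the opposite strand, and the piece above shows its base composition. It is 35.6% G and 7.05% C, whereas the 12 other mRNAs are 6.28% to 16.2% G and 29.5% to 35.98% C.

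Not all members could be seen in these libraries. All 13 mRNAs and both rRNAs had counts in all 16 libraries, but of the 22 tRNAs only MT-TP, the proline tRNA gene, passed the filter of at least 60 counts in all, so that 16 of the 37 members were tested and 21 were not. Of those 21 tRNAs, 12 had no count in any library, and the other 9 together had 93 counts, with at most 10 in a library (MT-TF). MT-TP held 31080 of the 31173 tRNA counts (99.7%), with 736 to 3949 per library. Its neighbour MT-TT, the threonine tRNA gene on the other strand, had none in any of the 16 libraries. A count of 0 in a library taken alone allows an expected count of up to 3 (95% limit). The 16 libraries together bound the expected count per library more tightly. Both sequences are shown because the pair is alike in length and differs in strand. MT-TP also stood alone among the 8 tRNA genes of its own strand. Over all libraries MT-TC had 21 counts, MT-TY 9, MT-TN 1, and MT-TQ, MT-TA, MT-TS1 and MT-TE 0.

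MT-TP, chrM:15956-16023, − strand: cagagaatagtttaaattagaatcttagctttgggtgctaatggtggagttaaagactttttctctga
MT-TT, chrM:15888-15953, + strand: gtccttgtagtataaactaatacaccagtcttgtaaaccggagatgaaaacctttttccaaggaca

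The libraries were made with a stranded kit, but the selection or depletion step, the lower limit of fragment length and whether strand entered the count are not given in the sources used here. A count on MT-TP therefore says that reads fell on this interval, not that mature tRNA was sequenced.

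Among the members, a few genes held most of the counts. Over all libraries MT-CO1, the catalytic subunit of cytochrome c oxidase, held 21.9% of all mitochondrial counts, MT-ND4, a subunit of the proton-pumping arm of complex I, held 13.9%, and MT-RNR2, the rRNA of the large ribosomal subunit, held 12.8%. MT-CO2 and MT-CO3, the other cytochrome c oxidase subunits, held 11.9% and 10.8%. The remaining members held 5.76% (MT-CYB) or less each.

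Per kb of gene, MT-CO2 was the highest member in all 4 lines, at a mean over the lines of 12095 CPM per kb (SD 4517, n = 4 lines). MT-CO1 and MT-CO3 followed at 9913 and 9797 CPM per kb, and MT-ND4 at 7131. At the other end, the rRNA of the small subunit, MT-RNR1, was the lowest of the 16 in 786-O, A498 and 769-P, at a mean of 950.3 CPM per kb, while the large subunit rRNA MT-RNR2 stood at 5263. The order of the mRNAs was nearly the same in every line: MT-CO2, MT-CO1 and MT-CO3 took the first 3 places in each, and MT-ATP8, MT-ND6 and MT-ND3 were always among the last 6 of the 16. MT-RNR2 moved most, from the tenth place in 786-O to the fourth in CAKI-2. Reads of the overlap with MT-ATP6 bear on the level of MT-ATP8.

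**Figure D1:**
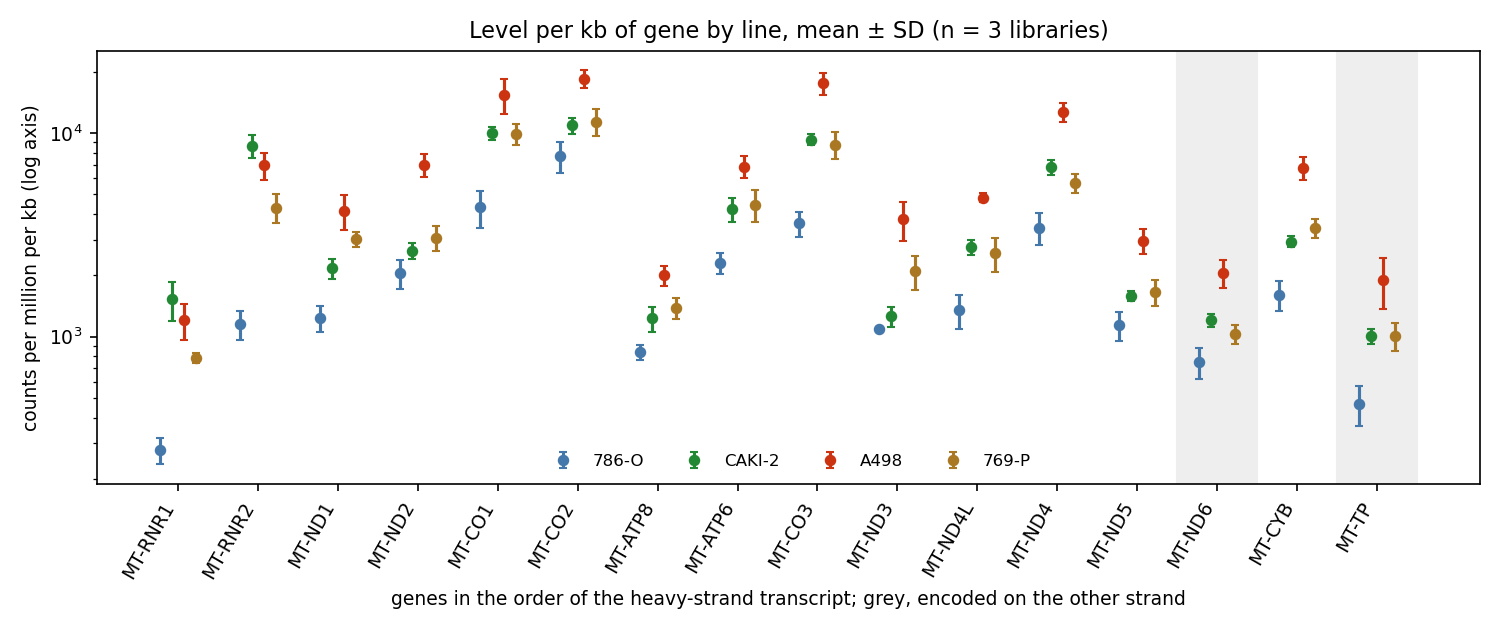
Level per kb of gene of the 16 tested members, in the order of their genes, as CPM per kb on a log axis; points are the mean and bars the SD of the sgCtrl and the 2 sgKDM5C libraries of a line (n = 3). A498 lies above the other lines for the 13 mRNAs and MT-TP, CAKI-2 lies highest for the 2 rRNAs, and 786-O lies lowest for all 16.

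The lines differed in how much of the library was mitochondrial. In 786-O the members made up 3.40% of all counts in the sgCtrl library, 3.37% and 2.47% with sgKDM5C guides 4 and 5, and 2.81% and 2.90% with sgKDM5D guides 2 and 4. In CAKI-2 the shares were 7.80% (sgCtrl), 7.69% and 6.70% (sgKDM5C), and 7.38% and 7.98% (sgKDM5D). In A498 they were 12.8%, 11.7% and 9.997%, and in 769-P 5.83%, 6.80% and 5.46%, in the order sgCtrl, guide 4, guide 5. The lowest A498 library was above every library of the other lines and the highest 786-O library was below them all, whereas CAKI-2 and 769-P met at 6.70% and 6.80%.

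Over the sgCtrl and sgKDM5C libraries the mean share was 3.08% ± 0.529 (SD, n = 3) in 786-O, 6.03% ± 0.691 in 769-P, 7.39% ± 0.603 in CAKI-2 and 11.5% ± 1.43 in A498, a 3.74-fold range. The difference between lines was larger than the spread within them (exact permutation test on the log2 share, 369600 assignments of 12 libraries, p = 0.00013, adjusted over 6 quantities p = 0.000195). The 4 sgCtrl libraries alone had the same order. Counting error was small beside this: the 95% Wilson interval of a library's share was at most 0.0135 percentage points to either side. A share cannot tell more mitochondrial RNA per cell from less nuclear RNA per cell.

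The A498 libraries also stood apart in other RNA classes. The nuclear long RNA NEAT1 had 578 to 848 CPM in A498 and 64.8 to 476 CPM in the other lines, while another such RNA, MALAT1, had 86.6 to 108 CPM in A498 and overlapped with 769-P (88.6 to 137 CPM). The 39 replication-dependent histone genes, whose mRNAs lack a poly(A) tail, summed to 395 to 526 CPM in A498 and to 61.0 to 254 CPM in the others. The 84 cytosolic ribosomal protein genes did not set A498 apart, with 49080 to 58161 CPM against 40315 to 63660. The part of these classes in the mitochondrial share was not tested.

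**Figure D2:**
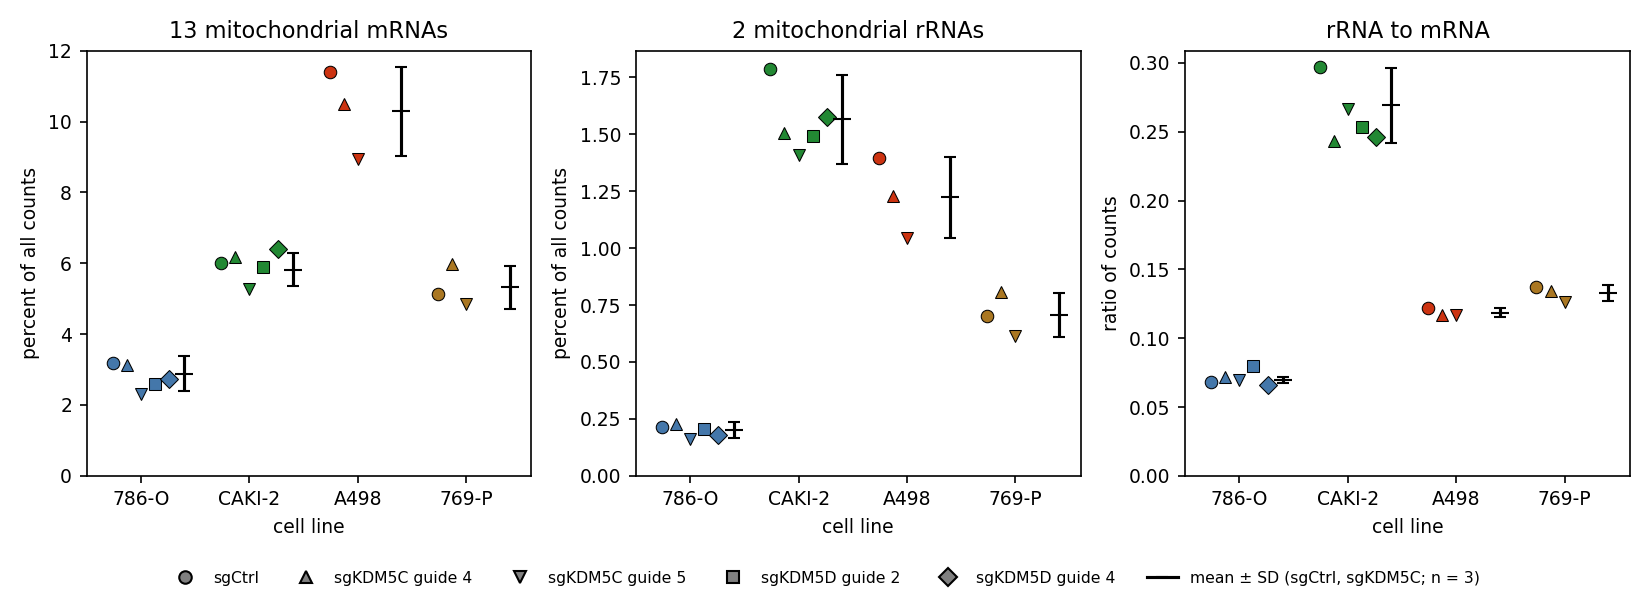
Share of all counts held by the 13 mRNAs (left) and the 2 rRNAs (middle), in percent, and the ratio of rRNA to mRNA counts (right), for each of the 16 libraries; shapes mark the genotype and guide, and black bars the mean ± SD of the sgCtrl and sgKDM5C libraries (n = 3). The A498 libraries are highest for mRNA, at 8.94% to 11.4%, and the CAKI-2 libraries are highest for rRNA, at 1.41% to 1.79%.

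The rRNAs were ordered otherwise than the mRNAs. The 2 rRNAs made up 0.201% ± 0.0355 (SD, n = 3) of all counts in 786-O, 0.708% ± 0.0968 in 769-P, 1.22% ± 0.176 in A498 and 1.57% ± 0.196 in CAKI-2, a range of 7.79-fold, while the 13 mRNAs ranged 3.57-fold, from 2.88% ± 0.494 in 786-O to 10.3% ± 1.25 in A498. CAKI-2 thus had the most rRNA but 5.82% ± 0.471 of mRNA. The ratio of rRNA to mRNA counts was 0.0679, 0.0720 and 0.0694 in the sgCtrl and sgKDM5C libraries of 786-O, 0.122, 0.117 and 0.117 in A498, 0.137, 0.135 and 0.127 in 769-P, and 0.297, 0.244 and 0.266 in CAKI-2. No line overlapped another in this ratio. Both the rRNA share and the ratio differed between lines with p = 6.49e-05 in the exact permutation test, the smallest p it can give here (adjusted p = 0.000195). The selection step of the library preparation bears on rRNA counts and its part in the ratio was not tested.

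Gene by gene, each line was set against the mean of the other 3 with the edgeR quasi-likelihood test, with p-values adjusted over all 20175 genes tested and called under 0.05. These 4 comparisons share libraries, so that a line that is high lowers the others. In 786-O, 16 of 16 members were lower, in a comparison in which 27.2% of all genes were called lower and 29.3% higher. In A498, 16 of 16 were higher, beside 39.7% of all genes called higher and 29.4% lower. In CAKI-2, 2 members were higher and 2 lower, beside 36.6% and 25% of all genes. In 769-P, 1 was higher and 1 lower, beside 30.9% and 27.3%. Over the 16 members the median log2 fold change was −1.19 for 786-O, 1.11 for A498, 0.04 for CAKI-2 and −0.01 for 769-P, where the median of all genes tested was −0.07, 0.15, 0.11 and −0.06. Without either of the sgKDM5C guide 4 libraries that lay apart, in 786-O or in 769-P, the counts were again 16 lower in 786-O and 16 higher in A498, with 4 or 5 called in CAKI-2 and 3 in 769-P.

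**Figure D3:**
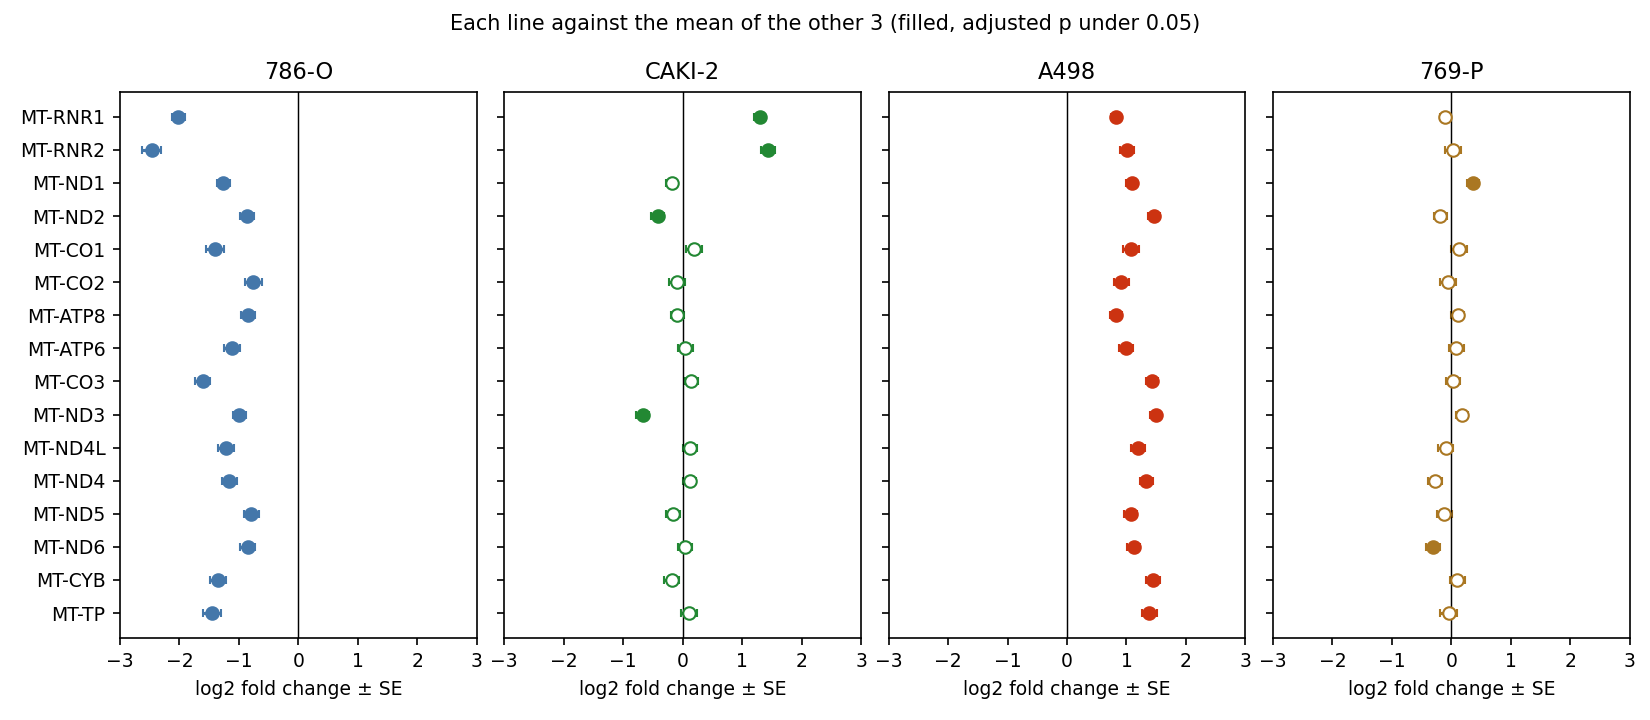
Log2 fold change ± SE of the 16 tested members in each line against the mean of the other 3; filled points have an adjusted p under 0.05 in edgeR's quasi-likelihood test. All 16 points lie below 0 in 786-O and above 0 in A498, and in CAKI-2 the 2 rRNAs stand at 1.29 and 1.43 while the mRNAs lie between −0.67 and 0.19.

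The largest difference in 786-O was that of the rRNAs. MT-RNR2 stood at 1924, 2014 and 1467 CPM in 786-O (sgCtrl, sgKDM5C guides 4 and 5), and in the same order at 6670, 7833 and 5634 in 769-P, 12490, 10853 and 9098 in A498, and 15416, 12910 and 12148 in CAKI-2. The 786-O libraries lay far below all others, and CAKI-2 and A498 overlapped. It was lower in 786-O by a log2 fold change of −2.47 (SE 0.160, adjusted p = 1.11e-08) and higher in CAKI-2 by 1.43 (SE 0.122, adjusted p = 1.51e-07). MT-RNR1 stood at 308, 251 and 234 CPM in 786-O, 718, 798 and 732 in 769-P, 1820, 1222 and 1344 in CAKI-2, and 1402, 1097 and 952 in A498. Its log2 fold change was −2.02 in 786-O (adjusted p = 2.18e-09) and 1.29 in CAKI-2 (adjusted p = 1.40e-08). Both rRNAs were thus called lower in 786-O and higher in CAKI-2.

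The cytochrome c oxidase subunits differed unequally between the lines. MT-CO3 had 3223, 2803 and 2441 CPM in 786-O, 6563, 8021 and 6073 in 769-P, 7092, 7800 and 6963 in CAKI-2, and 15462, 13698 and 12030 in A498. Its range of 4.86-fold between the line means was the widest of the 13 mRNAs, with log2 fold changes of −1.61 in 786-O (SE 0.127, adjusted p = 8.34e-08) and 1.43 in A498 (SE 0.105, adjusted p = 2.06e-08). MT-CO1 had 7423, 7501 and 5049 CPM in 786-O and 28211, 24227 and 18809 in A498, with 13941 to 17356 in the sgCtrl and sgKDM5C libraries of CAKI-2 and 769-P. It was lower in 786-O by −1.40 (SE 0.152, adjusted p = 2.18e-06). MT-CO2, the highest member per kb, had the narrowest range of the 13, 2.39-fold, from 5761, 5874 and 4210 CPM in 786-O to 13450, 13225 and 11133 in A498. CAKI-2 and 769-P overlapped for all 3 subunits.

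MT-CYB, the cytochrome b of complex III, had 1843, 2139 and 1512 CPM in 786-O, 3869, 4333 and 3510 in 769-P, 3420, 3501 and 3103 in CAKI-2, and 8305, 8212 and 6582 in A498, and these libraries did not overlap between lines. Its log2 fold change was −1.35 in 786-O (adjusted p = 1.21e-06) and 1.44 in A498 (adjusted p = 5.80e-08).

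Among the complex I subunits, MT-ND3 and MT-ND2 were the members called higher in A498 and lower in CAKI-2. MT-ND3 had 364, 383 and 384 CPM in 786-O, 594, 871 and 715 in 769-P, 462, 466 and 379 in CAKI-2, and 1613, 1238 and 1055 in A498. CAKI-2 and 786-O overlapped at the low end and A498 lay above all. The gene was higher in A498 by 1.49 (SE 0.0970, adjusted p = 6.11e-09), the largest change there, and lower in CAKI-2 by −0.67 (SE 0.109, adjusted p = 9.37e-05). MT-ND2 had 2496, 1800 and 2136 CPM in 786-O, 3057, 3700 and 2830 in 769-P, 2987, 2759 and 2488 in CAKI-2, and 8284, 6991 and 6468 in A498. It was higher in A498 by 1.47 (adjusted p = 9.28e-09) and lower in CAKI-2 by −0.42 (SE 0.110, adjusted p = 0.00438). MT-ND4 was higher in A498 by 1.33 (adjusted p = 6.59e-08), with 18941, 17967 and 15410 CPM there and 3788 to 9863 in the sgCtrl and sgKDM5C libraries of the other lines.

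MT-ND1 and MT-ND6 were the members called in 769-P. MT-ND1 had 1363, 1033 and 1147 CPM in 786-O, 2736, 3167 and 2724 in 769-P, 2341, 2004 and 1879 in CAKI-2, and 4813, 3784 and 3321 in A498. The 4 lines did not overlap, and the gene was higher in 769-P by 0.36 (SE 0.0958, adjusted p = 0.00459). MT-ND6 had 418, 445 and 318 CPM in 786-O, 499, 607 and 520 in 769-P, 650, 668 and 576 in CAKI-2, and 1263, 1049 and 925 in A498. It was lower in 769-P by −0.31 (SE 0.118, adjusted p = 0.0361), a call that 5 of the alternative fits did not keep (adjusted p = 0.0552 to 0.178), among them the fits without A498 sgCtrl, without A498 sgKDM5C guide 4, without 769-P sgCtrl and without 769-P sgKDM5C guide 5.

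The interval of MT-TP followed the mRNAs. It had 29.2, 40.1 and 26.4 CPM in 786-O, 56.0, 74.2 and 74.9 in 769-P, 75.1, 66.2 and 64.3 in CAKI-2, and 168, 124 and 96.8 in A498. It was lower in 786-O by −1.45 (adjusted p = 1.41e-06) and higher in A498 by 1.39 (adjusted p = 1.93e-07). CAKI-2 and 769-P overlapped.

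The remaining members kept to the same order of lines at the ends. MT-ATP8, MT-ATP6, MT-ND4L and MT-ND5 had log2 fold changes of −0.84, −1.12, −1.22 and −0.79 in 786-O and of 0.83, 0.99, 1.19 and 1.07 in A498, and none of them was called in CAKI-2 or 769-P.

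By complex, the make-up of the mitochondrial mRNA pool moved less than its size. The 3 cytochrome c oxidase mRNAs took 49.7% ± 1.85 (SD, n = 3) of mitochondrial mRNA counts in 786-O, 49.7% ± 0.814 in A498, 53.4% ± 0.489 in 769-P and 54.3% ± 0.788 in CAKI-2. The 7 complex I mRNAs took 38.2% ± 2.03, 37.6% ± 0.732, 33.7% ± 0.674 and 34.1% ± 0.733 in the same order. MT-CYB took 6.02% ± 0.112 in CAKI-2 and 7.66% ± 0.358 in A498, and the 2 ATP synthase mRNAs took 5.05% ± 0.109 in A498 and 5.61% to 5.92% on average in the other lines. The 786-O and A498 libraries, with the smallest and the largest pools, overlapped in their complex I and complex IV shares. Within complex IV they differed in opposite directions. MT-CO2 took 17.8% ± 0.786 of mitochondrial mRNA counts in 786-O and 12.6% ± 0.628 in A498, and MT-CO3 9.56% ± 0.566 and 13.65% ± 0.296. These libraries did not overlap between the 2 lines for MT-CO2 or MT-CO3, while those for MT-CO1 did.

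The mRNA of the opposite strand, MT-ND6, was also measured against the 12 other mRNAs. Whether strand entered the count is not given, so reads from the other strand of this interval may be among its counts. The ratio of counts was 0.0129, 0.0144 and 0.0132 in 786-O, 0.00935, 0.00957 and 0.0105 in 769-P, 0.0114, 0.0116 and 0.0115 in CAKI-2, and 0.0112, 0.0104 and 0.0109 in A498. The lines differed (exact permutation test, p = 0.000195, adjusted p = 0.000234), with means of 0.0135 ± 0.000790 (SD, n = 3) for 786-O, 0.0115 ± 0.000149 for CAKI-2, 0.0108 ± 0.000442 for A498 and 0.00979 ± 0.000582 for 769-P. A498 and 769-P overlapped. The 1.38-fold range of this ratio was far smaller than the 3.74-fold range of the mitochondrial share.

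The second question was whether mutation of KDM5C changed the members. No member was called in any sgKDM5C comparison with sgCtrl, by edgeR or by DESeq2. Within single lines edgeR did not call the targeted gene KDM5C either. Its log2 fold changes ran from −1.44 (786-O, adjusted p = 0.206 in edgeR, the smallest) to −0.82 (A498). The fits of single lines thus missed a fall of this size, so 0 called members there does not show that the members were unchanged. In 786-O 0 of 16 members passed, beside 0.00991% of all genes, and 0 had an unadjusted p under 0.05. In CAKI-2 0 of 16 passed beside 0% of all genes, and 1 had an unadjusted p under 0.05. In A498 0 of 16 passed beside 0.00496% of all genes, and 4 had an unadjusted p under 0.05, all lower. In 769-P 0 of 16 passed beside 0.00496% of all genes, and 1 had an unadjusted p under 0.05. It was MT-ND3, higher by a log2 fold change of 0.42 (594 CPM in sgCtrl against 871 and 715). An unadjusted p under 0.05 was found for 1119 of all 20175 genes tested in A498, 670 in 769-P, 589 in 786-O and 392 in CAKI-2.

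In the mean over lines 0 of 16 members passed, beside 0.00991% of all genes. All 16 log2 fold changes were negative, from −0.30 to −0.03 with SEs of 0.0812 to 0.118, and their median was −0.12 against 0.04 over all genes tested. The member nearest to a call was MT-RNR1 (log2 fold change −0.30, unadjusted p = 0.00228, adjusted p = 0.836 in edgeR). The signs differed between lines: negative were 2 of 16 for 769-P (median 0.10), 16 for A498 (−0.30), 15 for CAKI-2 (−0.14) and 14 for 786-O (−0.20). These medians turned on single guides: without guide 4 or without guide 5 they were −0.07 or 0.26 for 769-P, −0.39 or −0.19 for A498, −0.22 or −0.03 for CAKI-2, and −0.38 or −0.02 for 786-O. The median over lines was −0.18 to −0.08 when 1 sgKDM5C library was left out. In 786-O guide 4 was below sgCtrl for 9 of 16 members and guide 5 for 15, and in CAKI-2 for 10 and 16. In A498 both guide populations were below sgCtrl for all 16 members, while in 769-P guide 4 was above sgCtrl for all 16 and guide 5 below it for 11. The test of the sgKDM5C effect differing between lines called 0 of 16 members and 0% of all genes. In it 2 members had an unadjusted p under 0.05 (smallest 0.0221, MT-ND3), beside 462 of the 20175 genes tested.

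The share of the library gave the same picture. The sgKDM5C share was 0.911 times the sgCtrl share in the mean over lines (log2 −0.13, exact permutation test within lines, 81 assignments, two-sided p = 0.247, adjusted over 6 quantities p = 0.481). On the log2 scale 769-P differed by 0.06, CAKI-2 by −0.12, A498 by −0.24 and 786-O by −0.24. The rRNA share was 0.874 times that of sgCtrl (p = 0.173) and the rRNA to mRNA ratio 0.949 times (p = 0.148), both with an adjusted p of 0.481 in the same exact test. Without the 786-O sgCtrl library the ratio passed unadjusted (log2 −0.12, p = 0.037 in the exact test, the smallest p that 3 lines allow). A p above the threshold does not show that the shares were alike, since each line had 1 sgCtrl library.

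The guides of sgKDM5C were also set against each other. The share with guide 5 was below that with guide 4 in 4 of 4 lines: 2.47% against 3.37% for 786-O, 5.46% against 6.80% for 769-P, 6.70% against 7.69% for CAKI-2 and 9.997% against 11.7% for A498. The guide 5 share was 0.813 times the guide 4 share in the mean (log2 −0.30, exact permutation test within lines, two-sided p = 0.125, the smallest p that 16 assignments can give). Lower with guide 5 were all 16 members in A498, 15 in each of CAKI-2 and 769-P and 13 in 786-O, and the exceptions were 3 members in 786-O, with MT-ND2 the highest, MT-RNR1 in CAKI-2 and MT-TP in 769-P. In the fit with guide as a term, 0 of 16 members passed, beside 0% of all genes. An unadjusted p under 0.05 was found for 11 members, all lower, and for 938 of the 20175 genes tested. The members moved together, so these 11 are not separate findings. The median log2 fold change of the 16 members was −0.28 against −0.03 over all genes. DESeq2 also called 0 members, and 0 of all 20175 genes. MT-CO1 came nearest, at −0.36 (SE 0.102, unadjusted p = 0.00336, adjusted p = 0.903 in edgeR). With every gene of at least 1 count kept in the fit, 2 of 25 members tested, MT-CO1 (adjusted p = 0.00416) and MT-CO2 (adjusted p = 0.0232), were called lower, beside 0.197% of all genes. The log2 fold change of KDM5C itself was 0.41 in this comparison and did not pass (unadjusted p = 0.00690, adjusted p = 0.903 in edgeR), and its level was 43.6 and 78.8 CPM with guides 4 and 5 in 786-O, 83.7 and 118 in 769-P, 80.6 and 96.1 in CAKI-2, and 111 and 114 in A498. NEAT1 and MALAT1 went the same way as the members: with guides 4 and 5 NEAT1 had 476 and 358 CPM for 769-P, 98.7 and 65.3 for 786-O, 722 and 578 for A498, and 92.4 and 64.8 for CAKI-2, and MALAT1 was also lower with guide 5 in 4 of 4 lines (log2 fold changes −0.46 and −0.42, not called, with adjusted p = 0.816 and 0.903 in edgeR). Of 83 ribosomal protein genes 67 had a positive log2 fold change, with a median of 0.06 and 0 called. The part of these RNAs in the difference between guides was not tested. The guide 4 libraries of 786-O and 769-P are those that lay apart from their lines, and the median over the members was −0.24 without 786-O and −0.26 without 769-P.

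**Figure D4:**
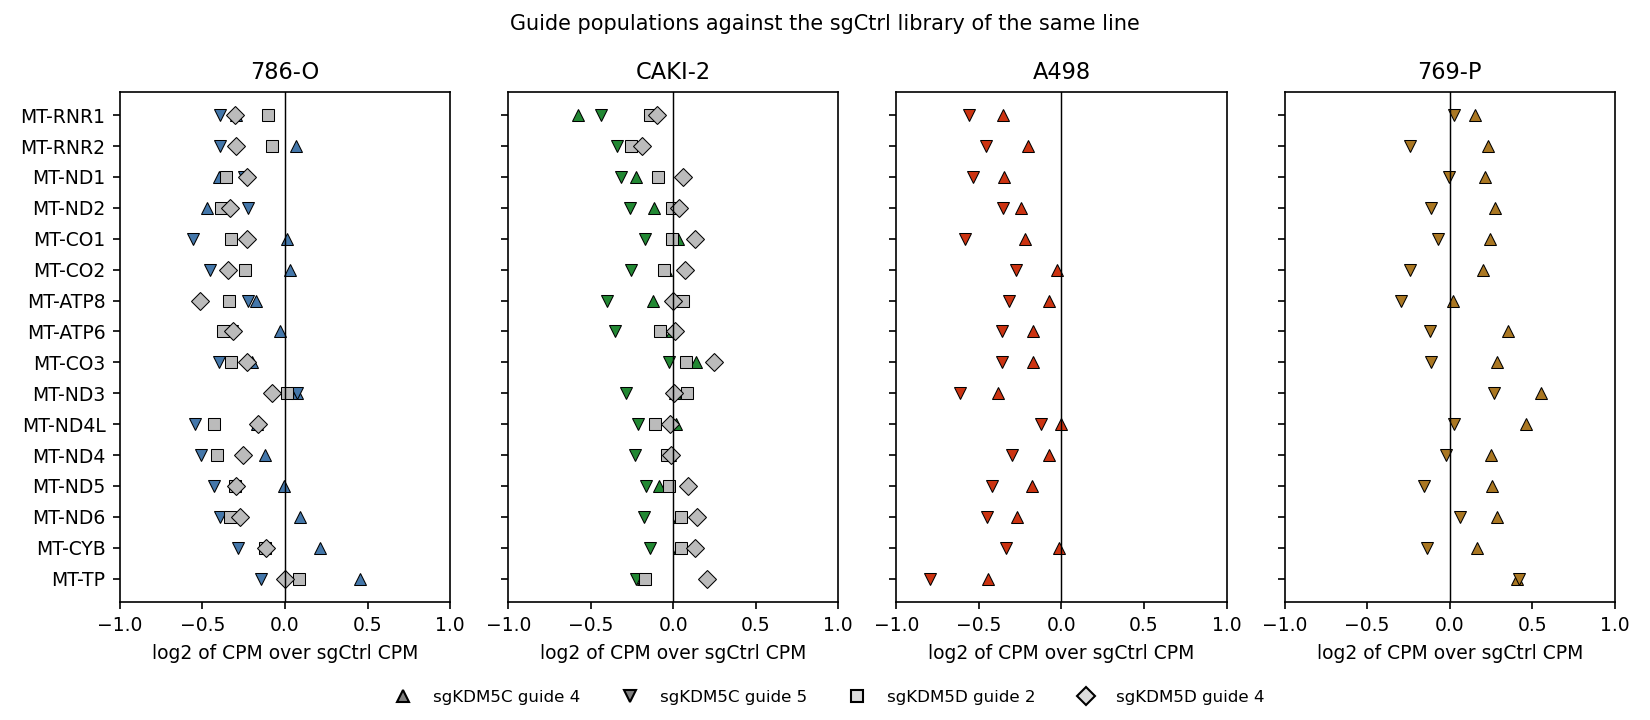
Log2 of the CPM of each guide population over the CPM of the sgCtrl library of the same line, for the 16 tested members; triangles are sgKDM5C guides 4 (up) and 5 (down), grey squares and diamonds sgKDM5D guides 2 and 4. The guide 5 points lie to the left of the guide 4 points for 13 members in 786-O, 15 in each of CAKI-2 and 769-P and 16 in A498, and both A498 guides lie below 0 for all 16.

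Mutation of KDM5D was measured in 786-O and CAKI-2. Against sgCtrl, 0 of 16 members passed in edgeR and in DESeq2, beside 0% of all genes in edgeR and 2 of 20175 genes in DESeq2. An unadjusted p under 0.05 was found for 0 members, beside 303 of the 20175 genes tested. The log2 fold changes ran from −0.20 (MT-RNR2) to 0.04 (MT-TP), with a median of −0.15. Both sgKDM5D shares lay below sgCtrl in 786-O (2.81% and 2.90% against 3.40%) and on either side of it in CAKI-2 (7.38% and 7.98% against 7.80%), and the mean log2 difference was −0.14 (exact permutation test, p = 0.222 with 9 assignments). In sgKDM5C against sgKDM5D, 0 of 16 members passed beside 0.0397% of all genes. Here 1 member (MT-RNR1, log2 fold change −0.26) had an unadjusted p under 0.05, beside 831 of the 20175 genes tested. The mitochondrial share differed by −0.04 on the log2 scale between these mutants (exact permutation test, 36 assignments, p = 0.833). With 9 or 36 assignments neither exact test could give a p under 0.05, whatever the values. Neither therefore shows that the shares were alike. The sgKDM5C and sgKDM5D comparisons use the same sgCtrl libraries.

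The nuclear genes that make, process and keep mitochondrial RNA were followed as a list of 39, all of which were tested. Between lines 31 of 39 passed for A498 (6 higher, 25 lower), 28 for 769-P (26 and 2), 25 for 786-O (16 and 9) and 19 for CAKI-2 (5 and 14). Of all genes 39.7% were called higher and 29.4% lower for A498, 30.9% and 27.3% for 769-P, 29.3% and 27.2% for 786-O, and 36.6% and 25% for CAKI-2. With so many genes called between lines, these counts by themselves are no result about the list. In A498, the line with the largest mitochondrial share, the median log2 fold change of the list was −0.53 against 0.15 over all genes, and in 769-P it was 0.51 against −0.06.

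POLRMT, the mitochondrial RNA polymerase, was highest in the line with the smallest share. It had 153, 102 and 162 CPM in 786-O, 70.7, 47.8 and 63.6 in 769-P, 63.6, 54.1 and 66.6 in CAKI-2, and 59.2, 56.5 and 53.3 in A498, and its log2 fold change was 1.23 in 786-O (SE 0.133, adjusted p = 2.00e-06) and −0.52 in A498 (adjusted p = 0.00543). The other 3 lines overlapped. TFAM, which packs mitochondrial DNA and starts its transcription, had 45.8, 49.4 and 54.2 CPM in 786-O, 78.6, 120 and 70.3 in 769-P, 34.7, 38.8 and 30.6 in CAKI-2, and 20.04, 21.9 and 25.03 in A498. It was lower in A498 (log2 fold change −1.28, SE 0.164, adjusted p = 6.91e-06) and higher in 769-P (1.38, adjusted p = 9.03e-07). LRPPRC, which stabilises mitochondrial mRNAs, was lowest in A498 too, with 107, 104 and 121 CPM against 149 to 167 in 786-O and CAKI-2 and 271, 297 and 233 in 769-P (log2 fold change −0.79 in A498, adjusted p = 2.01e-05, and 0.93 in 769-P, adjusted p = 2.05e-06). All 3 of these genes were thus called lower in A498, where all 16 members were higher. Only TFAM and LRPPRC were lowest there without overlap, since for POLRMT the A498 libraries overlapped with CAKI-2 and 769-P.

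PPARGC1A, a coactivator of mitochondrial biogenesis, split the lines. It had 37.4, 31.7 and 30.3 CPM in 769-P and 15.3, 10.3 and 10.6 in CAKI-2, but 0.766, 0.976 and 0.761 in A498 and 0.339, 2.36 and 0.323 in 786-O, where guide 4 stood apart. Its log2 fold changes were 4.15 in 769-P (adjusted p = 5.63e-08), 2.25 in CAKI-2 (adjusted p = 3.60e-05), −3.02 in A498 (adjusted p = 6.74e-05) and −3.37 in 786-O (adjusted p = 4.22e-05). Low PPARGC1A was thus found in the lines with the largest and the smallest mitochondrial share. Its relative PPARGC1B was higher in CAKI-2 (1.93, adjusted p = 1.90e-07) and lower in A498 (−2.06, adjusted p = 1.32e-06). FASTKD5, needed for processing of mitochondrial mRNAs such as MT-CO1, was lower in A498 (−1.77, adjusted p = 3.75e-08) and higher in 769-P (2.05, adjusted p = 1.46e-09). In 769-P the transcription factor TFB2M was higher (1.49, adjusted p = 2.90e-08). In CAKI-2 MTERF2, of the family of mitochondrial transcription termination factors, was lower (−1.29, adjusted p = 2.38e-05). PRORP, the nuclease that cuts the 5′ ends of the tRNAs, was called higher in 786-O at a very low level (1.14, adjusted p = 0.0113 in edgeR). It had 0.527, 0.410 and 0.467 CPM there (sgCtrl, sgKDM5C guides 4 and 5) and overlapped with CAKI-2 (0.519, 0.349 and 0.230 CPM). A correlation over 4 lines was not computed.

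The nuclear genes for subunits of the same complexes had another order of lines. Of 83 such genes 79 were tested: in 769-P 49 were higher and 5 lower (median log2 fold change 0.50 against −0.06 over all genes), in CAKI-2 10 were higher and 40 lower (−0.32 against 0.11), in A498 17 were higher and 29 lower (−0.08 against 0.15) and in 786-O 20 were higher and 18 lower (−0.0039 against −0.07). Beside the shares of all genes called, given for the factors, these counts too are no result by themselves. In sum they took 1.002% ± 0.0546 (SD, n = 3) of all counts in 769-P, 0.720% ± 0.0104 in 786-O, 0.648% ± 0.0316 in CAKI-2 and 0.638% ± 0.0368 in A498. The ratio of the counts of the 13 mitochondrial mRNAs to those of the 83 nuclear genes was 4.35, 4.41 and 3.22 in 786-O, 4.84, 6.29 and 4.87 in 769-P, 9.07, 10.1 and 7.89 in CAKI-2, and 17.4, 15.9 and 15 in A498. No libraries of different lines overlapped in this ratio, whose means were 3.99 ± 0.671, 5.33 ± 0.832, 9.02 ± 1.10 and 16.1 ± 1.22 (SD, n = 3). Some of the 83 nuclear genes were very low in every library: NDUFV2 had 0.188 to 1.78 CPM and NDUFA7 0.0698 to 0.553, while NDUFV1 had 83.0 to 221. How the counting assigned reads to such genes is not given, and its part in the ratio was not tested. In sgKDM5C against sgCtrl in the mean over lines, 0 of the 79 were called (smallest adjusted p = 0.901 in edgeR), 65 log2 fold changes were negative, and the median was −0.08 against 0.04 over all genes.

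Copies of mitochondrial sequence in the nuclear genome can take reads from the members. The table listed 371 such pseudogenes, of which 168 had a count, and in sum they held 0.958% to 1.44% as many counts as the members did. Of their counts 97.0% lay on 4 copies that lie near each other on chromosome 1 (GRCh37, + strand). MTATP6P1 (chr1:569076-569756) is as long as MT-ATP6, and 671 of its 681 bases are the same (98.5%), with a longest shared run of 141 bases. It had 244961 counts in all, 19.3% as many as MT-ATP6. By library this percentage was 14.7% to 23.2% and its line means were 20.4% ± 1.51 (SD, n = 3) for 786-O, 18.6% ± 0.733 for CAKI-2, 19.2% ± 1.70 for A498 and 19.2% ± 4.27 for 769-P, with libraries that overlapped, although MT-ATP6 itself differed 2.97-fold between lines. Which of these reads came from MT-ATP6 was not tested, and how the counting treated reads that fit both is not given. The uncertainty in the level of MT-ATP6 is therefore of unknown size. The other copies were as alike but held less: MTND2P28 (chr1:565020-566063) is 98.4% identical to MT-ND2 and had 3.23% as many counts, MTCO1P12 (chr1:566454-567996) is 98.7% identical to MT-CO1 and had 0.252%, and MTCO3P12 (chr1:569756-570302) is 98.2% identical to the part of MT-CO3 it holds and had 0.121%. One library broke the pattern: MTCO1P12 had 2912 counts in 769-P sgKDM5C guide 4 and 783 and 698 in the other 769-P libraries, 0.597% of MT-CO1 against 0.199% to 0.247% in the other 15 libraries.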

How the data were processed

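Bulk RNA-seq counts per gene were taken as deposited by the authors for 16 libraries. Total RNA was isolated, libraries were made with a TruSeq stranded kit and sequenced as read pairs. The submitters' processing notes name Trimmomatic 0.38, STAR 2.5.2b and GRCh37. The counter, its annotation and its strand setting are not given in the sources used here. Values were tested to be whole, without normalization. No column was left unused. Of 57773 genes 55538 were matched by Ensembl ID to symbols and GRCh37 coordinates (GENCODE release 44, lifted), from which lengths were taken, and sequences were read from the GRCh37 genome.

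The groups were line by genotype (10 groups), with guides as replicates. The mitochondrial genes and all gene lists were chosen with earlier results of these data known. The 20175 genes with 60 or more counts over all libraries were fitted with the edgeR 4.0.16 quasi-likelihood test (R 4.3.3), TMM factors (0.935 to 1.07) and 1 mean per group, with 6 residual degrees of freedom. A line against the others used sgCtrl and sgKDM5C libraries, and guide 5 against guide 4 was a term in a second fit. Benjamini-Hochberg adjustment ran over all genes tested. The SE was the absolute log2 fold change over root F. CPM used the TMM-scaled library totals. Shares are percent of all counts. Their log2 values were compared by exact permutation tests, two-sided where 2 groups are compared. The permutation tests of guide 5 against guide 4 and of sgKDM5D against sgCtrl, shares by complex, ratios to nuclear subunits and identities of nuclear copies were added after the data were examined. Intervals cover counting error only. Depth is given with the results.

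Values by library are given for the members called in a line comparison (up to 6 by size), the highest and lowest per kb and MT-ND6. POLRMT, TFAM, LRPPRC and PPARGC1A were always named, with up to 3 further called factors per line, and the 4 nuclear copies with the most counts. Alternatives were RLE factors, DESeq2 1.42.0, other count filters, scaling by nuclear genes, sgCtrl and sgKDM5C libraries alone, a guide block, other denominators, a linear scale and leaving out each library. The fits were tested on simulated data.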

Additional observations from a re-analysis of the deposited data

Results flagged for a closer look

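Over the 5 libraries of 786-O and the 5 of CAKI-2, which hold all genotypes of a line, 68 sets of values were searched for a library whose gap to its nearest neighbour passed Dixon's 95% value. Chance gives this in about 5% of sets, and 7 were found. The sets share libraries and counts, so these 7 are not separate findings and their number cannot be judged against 5%. In CAKI-2 the sgKDM5C guide 5 library was the low one for MT-ATP6 (2430 CPM), MT-ND3 (379.3 CPM) and MT-ND4 (8408 CPM), and the sgKDM5C guide 4 library was the low one for the nuclear subunits, at 0.6118% of all counts. In 786-O the sgKDM5C guide 4 library, which lay apart from its line, had the highest ratio of MT-ND6 to the 12 other mRNAs (0.01437) and the lowest sum of the 39 gene expression factors (0.1792% of all counts). The 786-O sgKDM5D guide 2 library had the lowest count on the nuclear copy MTCO3P12, at 0.06668% of MT-CO3.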

How the results depend on the processing

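Of the 31 comparisons of member counts and shares, each recomputed under its alternatives (414 values in all), 394 values were unchanged. For a count of called members, unchanged means equal or close to the main count, without regard to direction. For a share or ratio it means the same side of the threshold and, between genotypes, the same sign. The exact tests of sgKDM5C against sgKDM5D have too few assignments to pass the threshold under any alternative. For them only the sign could change, so their unchanged values say nothing about the threshold. Medians over the members are not in this tally, and some turned sign. For sgKDM5C against sgCtrl in 769-P, 0.10 became −0.07 without guide 4. In every alternative run 16 members were called lower in 786-O and 16 higher in A498 (of 25 tested where no filter beyond 1 count was used), and the line differences in shares and ratios kept p at 0.00123 or below when a library was left out. In 769-P the count of called members fell from 2 to 1 with sgCtrl and sgKDM5C libraries alone, and was 1 to 3 when a library was left out (1 without A498 sgKDM5C guide 4 or 769-P sgKDM5C guide 5). Guide 5 against guide 4 called 2 members, MT-CO1 and MT-CO2, both lower, when all 40196 genes with at least 1 count were kept (79 genes called). The share and ratio differences that turned sign were not called. The largest value after the turn was 0.1303, for the tRNA share in sgKDM5C against sgCtrl without A498 sgCtrl, beside −0.047 in the main test. For sgKDM5C against sgKDM5D, leaving out a library gave log2 differences of −0.152 to 0.0715 (mitochondrial share), −0.153 to 0.0692 (mRNA) and −0.172 to 0.0769 (rRNA). It gave −0.219 to 0.123 for the tRNA share and −0.0729 to 0.0618 for rRNA to mRNA. The tRNA share in sgKDM5C against sgCtrl ran from −0.198 to 0.1303, also log2. On a linear scale the rRNA to mRNA ratio differed by 0.001449 between sgKDM5C and sgKDM5D. In sgKDM5C against sgCtrl the log2 difference of the rRNA to mRNA ratio was −0.121 to −0.0264 when a library was left out, and it passed without 786-O sgCtrl (−0.121, p = 0.037, the smallest that the exact test of 3 lines allows). The cause of these changes was not tested.

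Guide numbers did not pair the libraries: the differences between guides 5 and 4 correlated at −0.223 to 0.291 between lines over 12075 genes. With 1 sgCtrl library per line, the number of sgCtrl cannot be told apart from its genotype, so the replicate block was a guide term within sgKDM5C and within sgKDM5D, and a genotype stood for the mean of both guides. With this block 0 members were called in every genotype comparison (median −0.13 for sgKDM5C against sgCtrl in the mean over lines, −0.12 without the block), 16 in 786-O and in A498, 4 in CAKI-2 and 3 in 769-P. Comparisons within a line could not be fitted without its sgCtrl library, and the guide comparison without 1 library is that without its line (0 called). DESeq2 called as many members as edgeR in each comparison other than 769-P (3 against 2). Named single genes kept their call in 924 of 950 values, and the 26 others, all in the same direction, were of POLRMT and TFAM in CAKI-2 and MT-ND6 in 769-P. Depth was not limiting for the 16 members, while 21 tRNAs had too few counts to be compared.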
